A study of Mus musculus with 9 samples.

Results

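The transcripts described here are the noncoding RNAs that an Agilent mouse expression array names by a RefSeq record of the NR type, which RefSeq gives to transcripts without a protein product. They were chosen by detection alone: of 1207 such probes, 530 were kept because their signal passed the scanner's well-above-background flag on each of the 3 arrays in 1 or more of the groups, out of 55681 non-control probes on the array and 31253 detected by the same rule. Meg3, Rian, H19, Airn and Kcnq1ot1 were left out by name. The 530 probes carry 471 RefSeq accessions, of which 437 could be given a gene symbol. Detection is a measured value, so a transcript that passed through 1 group only had to be brighter there. Summaries are therefore given mainly for the 436 probes that were well above background on all 9 arrays.

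The cells were LSK cells, the lineage-negative, Sca-1-positive, Kit-positive fraction of mouse bone marrow that holds the stem cells and early progenitors. They were sorted from C57BL/6 mice that had been transplanted with cells transduced with a GFP-marked vector. In 1 group of 3 samples the vector was empty, in another 3 it carried wild-type DNMT3A, and in the remaining 3 it carried DNMT3A with the R882H substitution. All groups therefore share transduction, transplantation and sorting, and the endogenous Dnmt3a alleles are not described as altered in any of them. Amplified cDNA from 3.67 ng of total RNA per sample was labelled and hybridised to 1-colour arrays. Nothing in the labels says whether the 3 samples of a group came from separate mice, so the p-values cover the spread among these 9 samples only, and that spread could be technical.

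DNMT3A is a de novo DNA methyltransferase, and R882H is the substitution most often found in it in acute myeloid leukaemia. Long noncoding RNAs act in several ways: Xist coats and silences an X chromosome, Neat1 builds nuclear bodies, and Norad binds Pumilio proteins in the cytoplasm. Host genes are transcribed mainly to release small nucleolar RNAs or microRNAs from their introns or exons, while the spliced remainder is often degraded. Antisense transcripts run opposite to a named partner gene, and pseudogenes are copies of coding genes that can still be transcribed.

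The arrays were alike in depth of signal. Each held 62976 spots with a median signal of 79 to 88 units over a median background of 24 to 29, none was saturated, and between 53.4% and 64.8% of probes were well above background. Kit, Cd34, Ly6a (the gene of Sca-1) and Flt3 were above background on all 9 arrays. So were the myeloid genes Itgam and Csf1r. Of the 4 B cell genes examined, Pax5 was above background on all 9 arrays and Ms4a1 on none. Cd79a was above background on 0 empty-vector, 2 wild-type and 3 R882H arrays. The 3 megakaryocyte genes Itga2b, Gp9 and Pf4 had higher means with R882H than with empty vector, by 0.71, 0.57 and 0.83. The part of such cells in the results below was not tested, and in bulk RNA fewer cells of a type cannot be told apart from less RNA per cell. The single Dnmt3a probe that was examined read 1.03, 1.22 and 1.40 in the empty-vector, wild-type and R882H groups (R882H minus empty vector 0.37 ± 0.37, SE). No source used here says whether this probe also reads the vector's DNMT3A.

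The group labels of the scanner files do not match those of the authors' deposited value table. Matched value by value, 7 of the 9 columns of that table hold another sample's array, and 4 of them an array of another group. Taken in the order of the sample list, the columns hold empty vector 1, 2 and 3, then R882H 1, 2 and 3, then wild type 1, 2 and 3. That is the alphabetical order of the sample titles. The sample list itself gives replicates 1 and 2 of empty vector, wild type and R882H, then replicate 3 of each. How the mismatch arose was not tested. Grouping here follows the scanner files. The leading differences are also given under the labels of the value table, and with only the 5 arrays whose group is the same in both sources (empty vector 1 and 2, wild type 2, R882H 2 and 3). The arrays also lay on 3 slides. Slide 1 held the empty-vector arrays and wild type 1, slide 2 held wild type 2 and 3 with R882H 1 and 2, and slide 3 held R882H 3. R882H and empty vector never shared a slide, so their difference within a slide cannot be given, and a fit with the slide as a block links them only through the wild-type arrays.

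Promoter windows are printed for 8 members, because DNMT3A methylates cytosine in CpG dinucleotides and these 8 were among the leading members, in either direction, between R882H and empty vector. Windows of other leading members are not shown. Each runs from 250 bases before to 50 bases after the RefSeq transcription start (GRCm38.p6), 5′ to 3′ on the strand of the gene, with every CpG in capitals. The window of Mirt1 holds 3 CpG (chr19:53464747-53465046, minus strand), that of 4930533B01Rik holds 1 (chr2:113708501-113708800, minus), Platr5 2 (chr1:88754640-88754939, plus), 9230112J17Rik 4 (chr9:60545833-60546132, minus) and Foxl2os 28 (chr9:98955261-98955560, minus). These 5 had higher means with R882H than with empty vector. Of the 3 with lower means, Jpx has 27 (chrX:103493308-103493607, plus), 4930509E16Rik 32 (chr9:72531809-72532108, minus) and 2310065F04Rik 3 (chr11:67120031-67120330, minus).
Mirt1 promoter: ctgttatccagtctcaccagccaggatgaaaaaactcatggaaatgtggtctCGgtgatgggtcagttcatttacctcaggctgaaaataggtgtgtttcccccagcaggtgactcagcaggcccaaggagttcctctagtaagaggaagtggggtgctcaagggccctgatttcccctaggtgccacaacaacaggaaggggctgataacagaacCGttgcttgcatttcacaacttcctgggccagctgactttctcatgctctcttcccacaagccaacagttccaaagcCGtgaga
4930533B01Rik promoter: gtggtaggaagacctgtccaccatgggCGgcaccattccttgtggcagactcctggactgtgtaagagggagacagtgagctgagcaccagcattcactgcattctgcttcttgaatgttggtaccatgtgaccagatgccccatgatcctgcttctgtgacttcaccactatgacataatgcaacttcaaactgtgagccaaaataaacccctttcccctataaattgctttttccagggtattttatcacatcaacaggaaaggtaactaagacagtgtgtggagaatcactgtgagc
Platr5 promoter: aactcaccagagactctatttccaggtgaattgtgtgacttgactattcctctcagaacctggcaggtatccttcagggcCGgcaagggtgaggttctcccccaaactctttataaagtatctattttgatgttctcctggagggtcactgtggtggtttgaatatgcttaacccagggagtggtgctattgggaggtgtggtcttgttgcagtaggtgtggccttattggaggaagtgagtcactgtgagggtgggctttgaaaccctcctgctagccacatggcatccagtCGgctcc
9230112J17Rik promoter: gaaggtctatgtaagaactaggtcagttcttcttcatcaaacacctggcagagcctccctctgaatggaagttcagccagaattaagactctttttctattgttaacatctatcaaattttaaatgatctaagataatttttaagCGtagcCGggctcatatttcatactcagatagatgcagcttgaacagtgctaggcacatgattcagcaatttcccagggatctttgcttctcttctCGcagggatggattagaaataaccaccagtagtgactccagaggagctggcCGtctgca
Foxl2os promoter: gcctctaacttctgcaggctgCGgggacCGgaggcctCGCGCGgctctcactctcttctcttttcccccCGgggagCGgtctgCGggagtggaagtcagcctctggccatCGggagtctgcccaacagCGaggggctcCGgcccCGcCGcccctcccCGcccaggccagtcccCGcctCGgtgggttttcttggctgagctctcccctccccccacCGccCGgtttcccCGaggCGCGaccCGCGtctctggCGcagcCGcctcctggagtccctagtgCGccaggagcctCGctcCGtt
Jpx promoter: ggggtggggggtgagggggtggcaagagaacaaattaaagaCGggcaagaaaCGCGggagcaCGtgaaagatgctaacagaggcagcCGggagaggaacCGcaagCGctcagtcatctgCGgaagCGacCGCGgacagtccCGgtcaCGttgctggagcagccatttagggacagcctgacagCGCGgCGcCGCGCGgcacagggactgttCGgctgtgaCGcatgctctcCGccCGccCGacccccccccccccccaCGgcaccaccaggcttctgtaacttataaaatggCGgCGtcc
4930509E16Rik promoter: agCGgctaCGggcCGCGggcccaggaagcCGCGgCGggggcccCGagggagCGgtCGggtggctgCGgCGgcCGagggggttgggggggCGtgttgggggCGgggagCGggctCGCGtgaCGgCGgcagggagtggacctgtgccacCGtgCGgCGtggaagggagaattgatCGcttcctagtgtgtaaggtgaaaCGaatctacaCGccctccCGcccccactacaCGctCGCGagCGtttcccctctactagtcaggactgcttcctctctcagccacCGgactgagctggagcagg
2310065F04Rik promoter: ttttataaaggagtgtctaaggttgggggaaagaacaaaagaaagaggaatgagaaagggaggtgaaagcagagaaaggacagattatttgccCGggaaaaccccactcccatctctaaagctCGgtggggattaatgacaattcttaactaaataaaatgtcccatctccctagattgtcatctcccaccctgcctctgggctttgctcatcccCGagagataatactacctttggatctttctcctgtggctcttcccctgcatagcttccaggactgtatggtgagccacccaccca
CpG-poor and CpG-rich windows are found in both directions. No methylation was measured in these samples.

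Examples of the mature microRNAs encoded in detected transcripts are printed next, because Dleu2, Mir17hg, Mirg and Ftx are known for such products: pairs from Dleu2 and from Mirg that share a seed, and 1 each from Mir17hg and Ftx. The other mature sequences, most of them from Mirg, are not shown. The seed, bases 2 to 8, is in capitals. The arrays measured the host transcripts and not these microRNAs.
miR-15a-5p (Dleu2): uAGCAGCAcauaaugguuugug
miR-16-5p (Dleu2): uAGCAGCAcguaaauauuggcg
miR-453 (Mirg): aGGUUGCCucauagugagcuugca
miR-496a-5p (Mirg): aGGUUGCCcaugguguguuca
miR-92a-3p (Mir17hg): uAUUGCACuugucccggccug
miR-374b-5p (Ftx): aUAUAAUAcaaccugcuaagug
The pair from Dleu2 has the same seed, as does the pair from Mirg. These are RefSeq entries. Of the Mir17hg cluster the table used held the mir-92 hairpin.

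Noncoding records were detected less often than coding ones. Of the NR probes 43.9% were well above background, against 63.2% of probes for coding (NM) records and 56.1% of all probes. Once detected, they were dim: the median log2 signal, relative to the 75th percentile of the array, was -1.08 for NR and 0.05 for NM probes. Of the detected NR probes 82.3% were above background on all 9 arrays, against 88.7% of NM probes. Since only this signal chose the members, these values are a description.

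The classes differed in the same measure. All 10 probes for small structural RNAs were detected and 15 of 21 for small RNA host genes, with median signals of 0.60 and 1.16. Pseudogenes were detected at 128 of 241 probes with a median of 0.61, and named long noncoding RNAs at 38 of 72 with a median of -0.97. Antisense transcripts and clones or gene models known only by a number were found least often, at 29 of 73 and 253 of 695 probes, and were dim (-1.77 and -1.83). A further 11 members are noncoding variants of coding genes and 46 probes had no symbol.

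The brightest members were clones and copies rather than well known RNAs. The 6 highest mean signals belonged to Gm6994 (9.26), I730030J21Rik (9.20), 1700110I01Rik (8.88), Rn4.5s, a small cytoplasmic RNA of rodents (7.96), and the pseudogenes Gm6548 (7.82) and Zfp133-ps (7.12). Probes differ in brightness for their own reasons, so these values do not rank the amounts of the RNAs, and a probe for a pseudogene or a repeated sequence may also bind transcripts of its near copies.

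At the edge of detection, 58 members were above background on all 3 arrays of 1 group only: 30 in R882H, 22 in wild type and 6 in empty vector. Each of them was also above background on at least 1 array of another group. Their highest group mean had a median of -2.91 and ran from -3.61 to -2.09. The 85 NR probes just outside the rule, above background on 2 of 3 arrays at best, had a median of -3.33 and ran from -4.22 to -2.47. The lowest signal that counted as above background lay between -4.22 and -3.44 on the 9 arrays. The arrays also differed in detection of all probes. The shares were 57.5%, 53.4% and 57.7% with empty vector, 57.3%, 64.8% and 56.2% with wild type, and 64.8%, 60.0% and 57.6% with R882H. The same split by group was not counted over all probes, so that of the 58 is not read as a trait of noncoding RNAs.

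The R882H and empty-vector groups share transduction and transplantation and differ in the added mutant DNMT3A. They also never shared a slide, so their difference may hold a difference between slides as well. No member passed an adjusted p of 0.05 (limma with Benjamini-Hochberg adjustment over all 31253 probes), where 0.0032% of all probes did, and the smallest adjusted p of a member was 0.276. At an unadjusted p under 0.05, 33 of the 530 were higher and 13 lower, beside 6.38% and 2.8% of all probes tested, so these shares of the members (6.23% and 2.45%) were near the background. Among the 436 detected everywhere, 23 were higher and 10 lower (4.85% and 2.89% of such probes in all). The R882H arrays lay wholly above the empty-vector arrays at 64 of the 436 (14.7%, beside 9.51% of all probes detected everywhere) and wholly below at 27 (6.19%, beside 8.44%). The median difference over the 436 was 0.04 on the log2 scale, beside -0.01 for all probes detected everywhere, and 55.5% of the 436 had a difference above 0, beside 48.5%. These splits depended on the scaling: with the array median in place of the 75th percentile, 13 members were higher and 36 lower at an unadjusted p under 0.05, and with cyclic loess or quantile normalisation 24 and 16.

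Against wild-type DNMT3A, which sets the mutant apart from an added normal enzyme, no member passed either, as for all probes (0.0%), and the smallest adjusted p of a member was 0.365 by limma. Unadjusted, 23 members were higher and 10 lower with R882H, beside 3.84% and 3.28% of all probes, or 4.34% and 1.89% of the members. Among the 436 the counts were 17 and 5, beside 2.96% and 3.2%, and 59.2% had a difference above 0, beside 50.9%. R882H lay wholly above wild type at 36 of the 436 (8.26%, beside 6.08%) and wholly below at 11 (2.52%, beside 6.95%). The split was 11 higher and 18 lower with the array median, 19 and 14 with cyclic loess, 19 and 13 with quantile normalisation and 13 and 12 after normexp background correction.

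Wild-type DNMT3A against empty vector also gave no member, where 0.0192% of all probes passed; the smallest adjusted p of a member was 0.534 by limma. At an unadjusted p under 0.05, 21 members were higher and 17 lower with wild type, beside 3.83% and 2.45% of all probes. Among the 436 the counts were 12 and 15, beside 2.83% and 2.18%, and 45.6% had a difference above 0, beside 49.8%. Wild type lay wholly above empty vector at 34 of the 436 (7.8%, beside 5.78%) and wholly below at 27 (6.19%, beside 4.52%). The split was 12 higher and 19 lower with the array median, 14 and 19 with cyclic loess, and 10 and 16 after normexp. Pairs of comparisons share a group of arrays, so these counts are not independent of one another.

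The difference between R882H and empty vector went with the brightness of the probe, in members and in all probes alike. In 5 bins of equal size by mean signal, dimmest first, the median difference of all probes was 0.23, 0.12, 0.04, -0.05 and -0.11, and that of the members in the same bins 0.26, 0.13, 0.10, 0.02 and -0.09. The 2 dimmest bins held 24.3% and 25.1% of the members. The spread between arrays of a group was similar, with a median SD of 0.287 for the members and 0.280 for all probes detected everywhere. The median SE of a member's difference was 0.251.

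**Figure D1:**
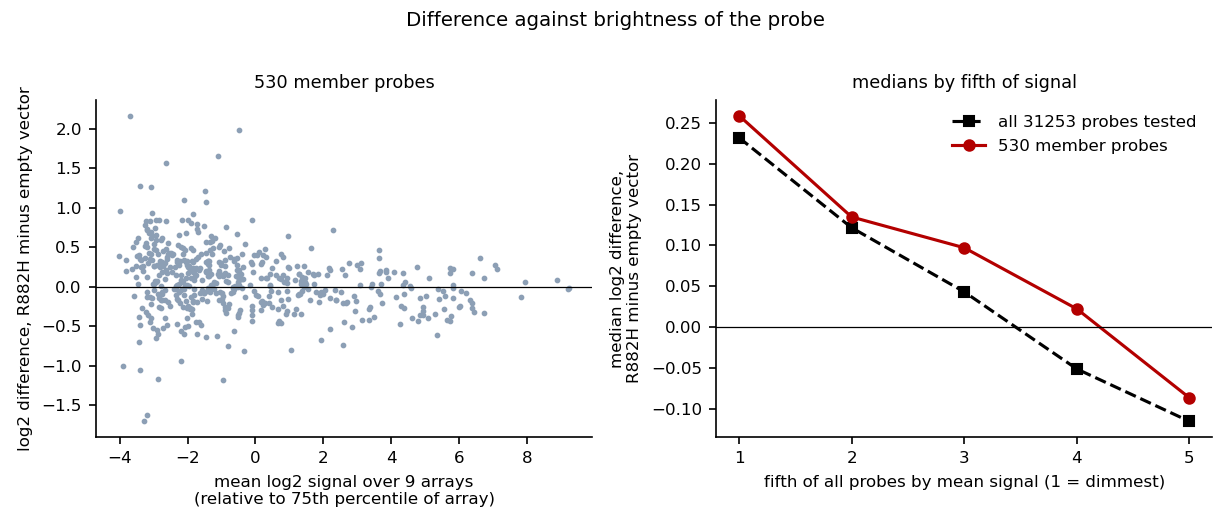
Difference between R882H and empty vector (log2) against mean signal for the 530 member probes (left), and the median difference in each of 5 bins of probes by signal for members (circles) and all 31253 probes tested (squares, right). The medians fall from 0.26 to -0.09 for members and from 0.23 to -0.11 for all probes.

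Among named long noncoding RNAs, Mirt1, first described as a transcript induced in infarcted heart, had the largest difference of those detected everywhere. It read -1.52, -1.88 and -2.65 on the empty-vector arrays, -0.63, -1.48 and -0.59 on the wild-type arrays, and -0.02, -0.04 and -1.02 on the R882H arrays. Both DNMT3A groups lay above all empty-vector arrays, and R882H overlapped wild type. R882H exceeded empty vector by 1.65 ± 0.39 (SE), or 3.14-fold, with an adjusted p of 0.403 by limma. The value was 0.79 under the value table's labels, 1.17 with the 5 arrays and 2.39 with the slide as a block. Wild type exceeded empty vector by 1.12 ± 0.39, and this difference was -0.05 under the value table's labels. Of its neighbours, Smndc1, a splicing factor, differed by -0.15 and Dusp5, a phosphatase of ERK kinases, by 0.17 between R882H and empty vector.

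Platr5, one of a set of transcripts named for their link to pluripotency, differed less but with little spread. Its values were -1.71, -1.86 and -1.70 with empty vector, -1.35, -1.46 and -1.59 with wild type, and -1.22, -1.16 and -1.18 with R882H. The 3 groups did not overlap, with wild type in between. The R882H minus empty-vector difference was 0.57 ± 0.14 (adjusted p = 0.412, limma), and 0.32 under the value table's labels. Sh3bp4, the next gene on one side, differed by 0.68 and Arl4c, on the other, by 0.20, neither past the adjusted threshold.

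Jpx, which activates Xist in the X inactivation centre, was detected in empty vector and not in the mutant. The empty-vector arrays read -2.43, -2.20 and -2.65, the wild-type arrays -3.02, -2.48 and -3.86, and the R882H arrays -4.30, -4.16 and -3.72. It was well above background on 3, 2 and 0 arrays of these groups, so R882H is given only as a bound: its signal was at least 2.78-fold lower than with empty vector. For such a bound, here and below, the mean of the brighter group is set against the dimmer group's own signals or, where higher, the lowest signal above background on each of its arrays. The measured difference was -1.63 ± 0.33 (adjusted p = 0.347, limma), -1.37 under the value table's labels and -1.62 with the 5 arrays. R882H minus wild type was -0.93 ± 0.33, and 1 wild-type array lay within the R882H range. No bound is given there, because that wild-type array was not above background either.

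Xist itself did not follow Jpx. Its brighter probe read 5.74, 5.79 and 5.41 with empty vector, 5.62, 5.86 and 5.46 with wild type, and 6.00, 5.89 and 5.77 with R882H, with overlap between all groups. The R882H minus empty-vector difference was 0.24 ± 0.17 for this probe and 0.19 ± 0.24 for the second, both with adjusted p above 0.6 by limma (0.653 and 0.798), and both turned negative under the value table's labels (-0.01 and -0.11). Ftx, another activator of Xist, differed by 0.30 ± 0.35 and 0.34 ± 0.48 at its 2 probes. Of the Y-linked genes Ddx3y, Eif2s3y, Kdm5d, Uty and Zfy1, none was above background on more than 1 array, while both Xist probes were above background on all 9.

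None of the detected widely expressed long noncoding RNAs passed the adjusted threshold in any comparison. Malat1, an abundant RNA of nuclear speckles, read 1.22 ± 0.53, 1.59 ± 0.51 and 1.49 ± 0.34 (SD, n = 3) in the empty-vector, wild-type and R882H groups, and Neat1, the scaffold of paraspeckles, read 1.66 ± 0.31, 1.62 ± 0.15 and 1.82 ± 0.38. Their R882H minus empty-vector differences were 0.27 ± 0.34 and 0.16 ± 0.24 (SE). Norad had 4 probes with differences of -0.31, 0.00, -0.10 and -0.20. At 2 of them R882H lay wholly below empty vector, and the difference of the first was 0.03 with the slide as a block. Tug1, a widely expressed nuclear RNA, had 3 probes with differences of -0.25, -0.05 and -0.26. At the first, the R882H and the wild-type arrays both lay wholly below those of empty vector (wild type minus empty vector -0.31 ± 0.13). At the other Tug1 probes the groups overlapped.

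Pvt1, the neighbour of Myc, was among the leading members between R882H and wild type. One probe read -1.06, -1.20 and -0.71 with empty vector, -0.67, -0.55 and -0.28 with wild type, and -1.44, -1.05 and -1.23 with R882H. The wild-type arrays lay above all others. R882H minus wild type was -0.74 ± 0.19 (adjusted p = 0.608, limma), -0.83 within slide 2, and 0.05 under the value table's labels. The second Pvt1 probe gave -0.03 ± 0.16 and did not separate the groups. Myc differed by -0.15 in the same comparison. Crnde, Dnm3os, Firre and Morrbid were on the array and not detected by the rule.

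**Figure D2:**
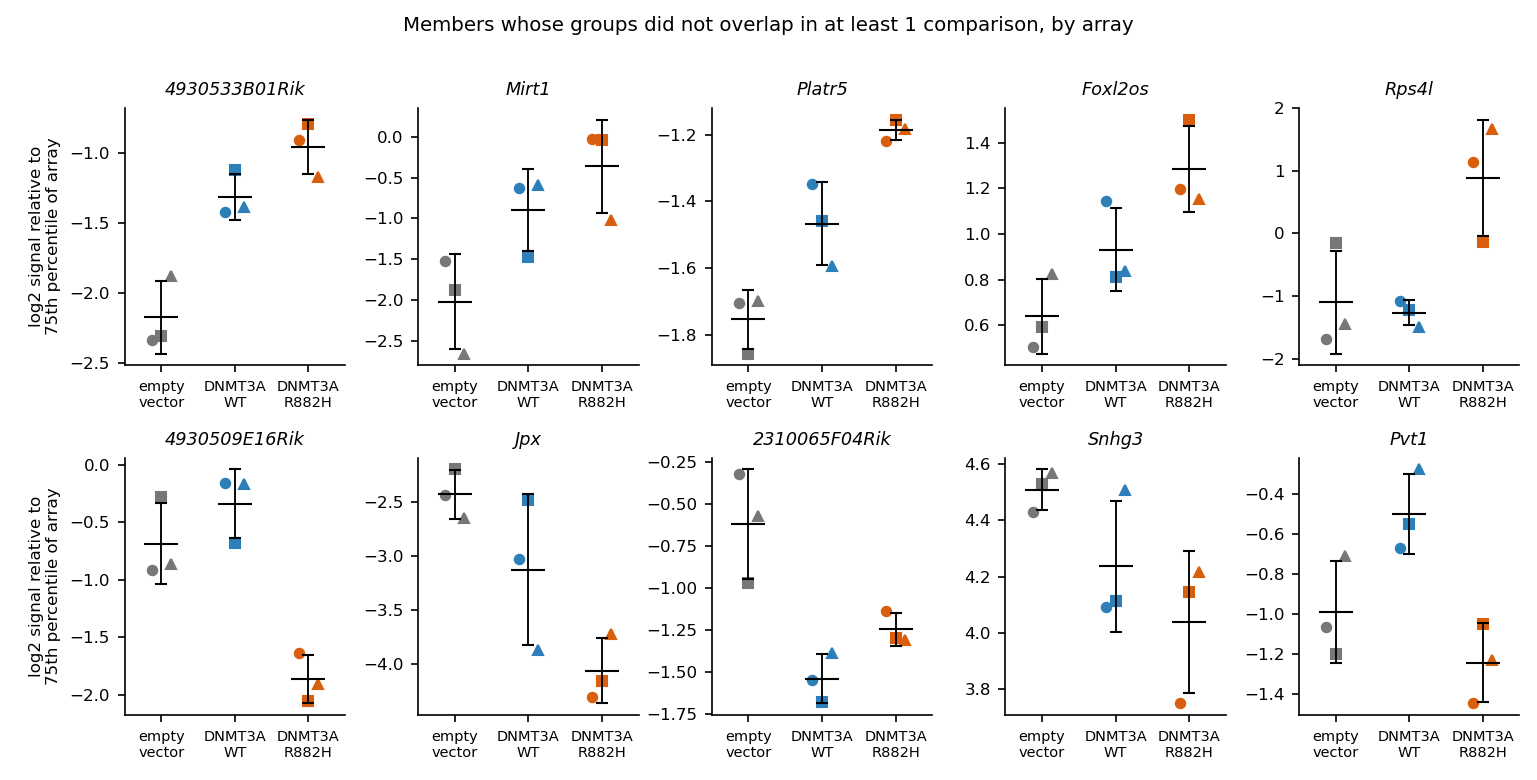
Log2 signal minus the 75th percentile of the array for 10 members whose groups did not overlap in at least 1 comparison, with 1 point per array (circle, square and triangle for replicates 1, 2 and 3), the mean as a bar and 1 SD as whiskers (n = 3). In Mirt1, Platr5 and 4930533B01Rik the wild-type mean lies between the others, while in 4930509E16Rik the R882H arrays lie below both other groups; in Rps4l the lowest R882H array (-0.13) is next to the highest empty-vector array (-0.16).

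Of the small nucleolar RNA hosts, 10 of 11 genes on the array were detected, at 11 probes. Between R882H and empty vector 5 probes had higher and 6 lower means, with a median of -0.06, and none passed. Snhg3, which carries Snora73a and Snora73b, was the only 1 of the 11 whose R882H and empty-vector arrays did not overlap. It read 4.43, 4.53 and 4.57 with empty vector, 4.09, 4.11 and 4.51 with wild type, and 3.75, 4.15 and 4.22 with R882H. The difference was -0.47 ± 0.19 (adjusted p = 0.529, limma) and -0.07 under the value table's labels, and -0.78 with the slide as a block. Its neighbour Rcc1, the exchange factor of Ran, differed by -0.41 ± 0.17.

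Within groups, the host probes varied together from array to array. R882H replicate 3 was the highest of its group at 10 of the 11 host probes, with a median deviation of 0.40 from the group mean, and R882H replicate 1 was the lowest at 9, with -0.36. Snhg1, the host of several box C/D RNAs, shows it: 4.46, 4.68 and 5.46 on R882H arrays 1, 2 and 3, against 4.83, 4.90 and 5.30 with empty vector. Snhg12 read 1.04, 2.15 and 2.47 on the same R882H arrays. Over all probes detected everywhere, R882H replicate 3 was the highest of its group at 38.8%. That array is also the one alone on slide 3, and Elane, a neutrophil elastase gene of granulocyte progenitors, was highest on replicate 3 of every group. It read 3.61, 2.28 and 5.33 with empty vector, 2.31, 2.98 and 4.92 with wild type, and 1.16, 1.76 and 3.14 with R882H. S100a8, a granulocyte gene above background on 1, 1 and 2 arrays of these groups, was also highest on replicate 3 in each. The other granulocyte and monocyte genes on the array did not share this. Itgam was highest on replicate 3 with wild type and R882H, but on replicate 1 with empty vector. Csf1r was highest on replicate 3 with wild type only, and lowest there with empty vector (4.34, 4.30 and 4.16) and R882H (4.33, 4.23 and 4.22). The part of the slide and of granulocyte cells in the host signals was not tested. The median R882H minus empty-vector difference over all 14 host probes, microRNA hosts included, was 0.12 with R882H replicate 3 and -0.07 without it, and -0.04 with array-median scaling. In the other groups, empty vector 3 was the highest at 8 host probes and wild type 1 at 6, while wild type 3 was the lowest at 6.

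Genes that work with the same small RNAs gave a similar picture for R882H replicate 3, but not for the other groups. R882H replicate 3 was the highest of its group for 18 of 19 coding genes that host small nucleolar RNAs and for 8 of 8 proteins of box C/D and H/ACA particles. Wild type 3, the lowest at 6 of 11 host probes, was the highest for 9 of the coding hosts and 6 of the proteins. Empty vector 1 was the highest for 12 of the coding hosts, and empty vector 3 for 5 of the proteins. All 8 particle proteins had lower means with R882H than with empty vector (median -0.23, from -0.54 to -0.07), as had 17 of the 19 coding hosts (median -0.12). The brightest bin of all probes had a median of -0.11 in that comparison. Between wild type and empty vector 7 of the 8 proteins and 17 of the 19 coding hosts had lower means as well. None of these 27 genes passed the adjusted threshold in any of the 3 comparisons.

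MicroRNA hosts were detected for 4 of 7 genes, and all 4 had higher means with R882H than with empty vector. Mirg, of the imprinted Dlk1-Dio3 region, read -1.54, -1.72 and -1.58 with empty vector, -1.65, -1.04 and -1.17 with wild type and -1.22, -1.25 and -1.36 with R882H. The R882H arrays lay above those of empty vector by 0.33 ± 0.18 (adjusted p = 0.590, limma), and the difference was -0.17 with the slide as a block. Mir17hg, the primary transcript of the oncogenic mir-17 to mir-92 cluster, read 2.01, 2.02 and 1.77 with empty vector, 2.65, 2.48 and 2.08 with wild type and 1.98, 2.34 and 2.20 with R882H. Wild type lay wholly above empty vector there, by 0.47 ± 0.19 (adjusted p = 0.778, limma), while R882H overlapped both. Its R882H minus empty-vector difference was 0.24 ± 0.19, and -0.03 under the value table's labels. Dleu2, whose transcript carries mir-15a and mir-16-1 and is a tumour suppressor locus in lymphoid cells, differed by 0.22 ± 0.27 between R882H and empty vector. Mir99ahg differed by 0.32 ± 0.56.

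**Figure D3:**
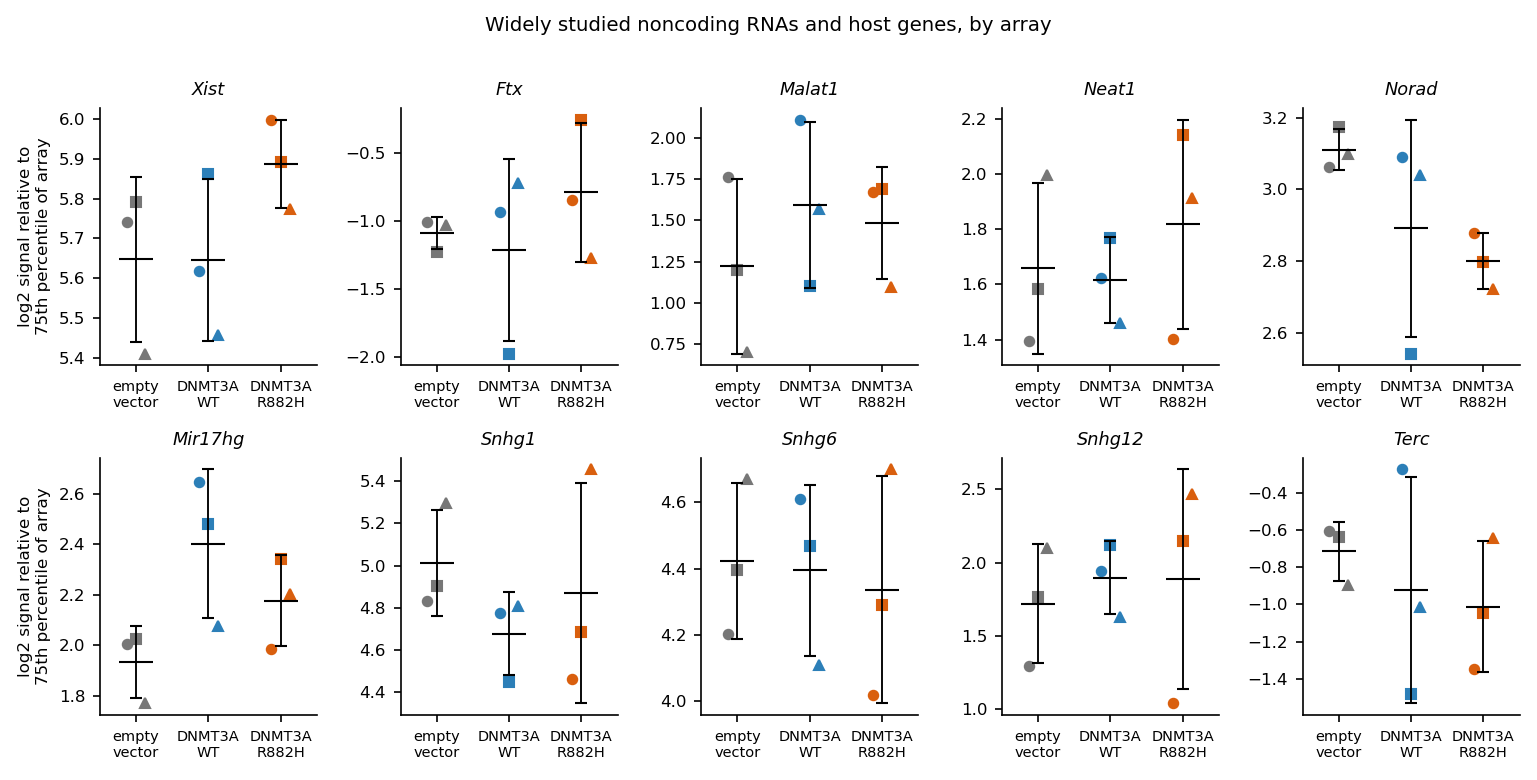
Log2 signal minus the 75th percentile of the array for 10 widely studied noncoding RNAs and host genes, with 1 point per array (circle, square and triangle for replicates 1, 2 and 3), the mean as a bar and 1 SD as whiskers (n = 3); where a gene has several probes, 1 is drawn. R882H replicate 3, the triangle, is the highest R882H array for Snhg1, Snhg6 and Snhg12.

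Small structural RNAs had their lowest signals in wild type. At all 9 probes detected everywhere the wild-type mean was below that of empty vector, with a median of -0.28 (49.8% of all probes detected everywhere had a difference above 0), and at 8 of 9 R882H was above wild type, with a median of 0.24. None passed in either comparison, and at none were the groups free of overlap. Rmrp, the RNA of RNase MRP, read 2.02, 2.22 and 2.38 with empty vector, 1.75, 0.90 and 2.29 with wild type, and 1.66, 1.89 and 2.79 with R882H. Rnu2-10, a U2 spliceosomal RNA, read -0.71, -0.66 and -0.50, then -0.61, -2.57 and -1.16, then -0.82, -1.01 and -0.67 in the same order. Wild type 2 was the lowest of its group at 6 of the 9 probes, with a median deviation of -0.35. Without that array 7 of 9 probes were below empty vector, with a median of -0.18, and the median of R882H minus wild type was 0.10. Terc, the template RNA of telomerase, differed by -0.30 ± 0.31 between R882H and empty vector.

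Antisense transcripts had more higher than lower means with R882H. Of 25 probes detected everywhere, 20 were above 0 against empty vector, with a median of 0.15 beside -0.01 for all such probes, and at 9 the R882H arrays lay wholly above (beside 9.51% of all probes) and at 0 wholly below. Dim probes shifted the same way across the array, and the part of brightness in the antisense differences was not tested. The median of the 25 was 0.00 with array-median scaling and -0.16 with the slide as a block. Foxl2os, opposite the ovarian transcription factor gene Foxl2, read 0.50, 0.59 and 0.82 with empty vector, 1.14, 0.81 and 0.84 with wild type and 1.20, 1.50 and 1.16 with R882H. The R882H arrays lay above all others, by 0.64 ± 0.18 against empty vector (adjusted p = 0.431, limma), and by 1.03 with the slide as a block. Foxl2 itself differed by -0.17 ± 0.21. Hoxa11os, opposite Hoxa11, differed by 0.41 ± 0.20, and by -0.13 with the slide as a block.

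The other 7 that did not overlap were Dlx4os (0.41), G6bos (0.47), Nrg3os (0.28), Pitpnm2os1 (0.27), Plekhd1os (0.43), Rab11fip4os1 (0.27) and Tnk2os (0.24). Partner genes were tested for 18 of 28 antisense names. Member and partner differed in the same direction at 11 of 19 probes between R882H and empty vector, at 6 between R882H and wild type and at 11 between wild type and empty vector. Rab10os and its partner Rab10, a vesicle GTPase, both had lower means with R882H than with empty vector (-0.48 and -0.30). Stk35os1 and Stk35 went opposite ways (0.56 and -0.24). No source used here says how strand was kept in amplification and labelling, so a transcript and its partner cannot be told apart where the probe lies in both.

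Pseudogenes had more lower than higher means. Of 116 probes detected everywhere, 74 had lower and 42 higher means with R882H than with empty vector, with a median of -0.12, and the median was below 0 under every scaling tried and under the value table's labels (-0.03). It was -0.09 between wild type and empty vector and -0.02 between R882H and wild type. Pseudogene probes had a median signal of 0.61, beside -1.08 for all members, and bright probes of all kinds had lower means with R882H than with empty vector. The part of brightness in the pseudogene differences was not tested. Where a named parent gene was tested, for 17 probes, member and parent differed in the same direction at 9.

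Rps4l, a transcribed copy of a ribosomal protein S4 gene, had the largest difference of any member detected everywhere. It read -1.69, -0.16 and -1.44 with empty vector, -1.08, -1.23 and -1.49 with wild type, and 1.14, -0.13 and 1.67 with R882H. R882H 2 stood next to the highest empty-vector array, while the other R882H arrays stood well above. R882H exceeded empty vector by 1.99 ± 0.51 (3.97-fold, adjusted p = 0.412, limma) and wild type by 2.16 ± 0.51 (adjusted p = 0.537, limma), and by 1.86 within slide 2. Under the value table's labels the values were 0.99 and 0.52. Btnl5-ps, a butyrophilin-like copy, differed by 0.62 ± 0.15 from empty vector without overlap, and Gm4956 by 0.78 ± 0.32, which was 0.08 with the slide as a block. One probe of Gm10731 was not above background on any wild-type array and was at least 1.43-fold higher with R882H than with wild type. The measured difference of 1.58 at this probe was 0.40 under the value table's labels. The second Gm10731 probe differed by 0.08 in the same comparison.

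**Figure D4:**
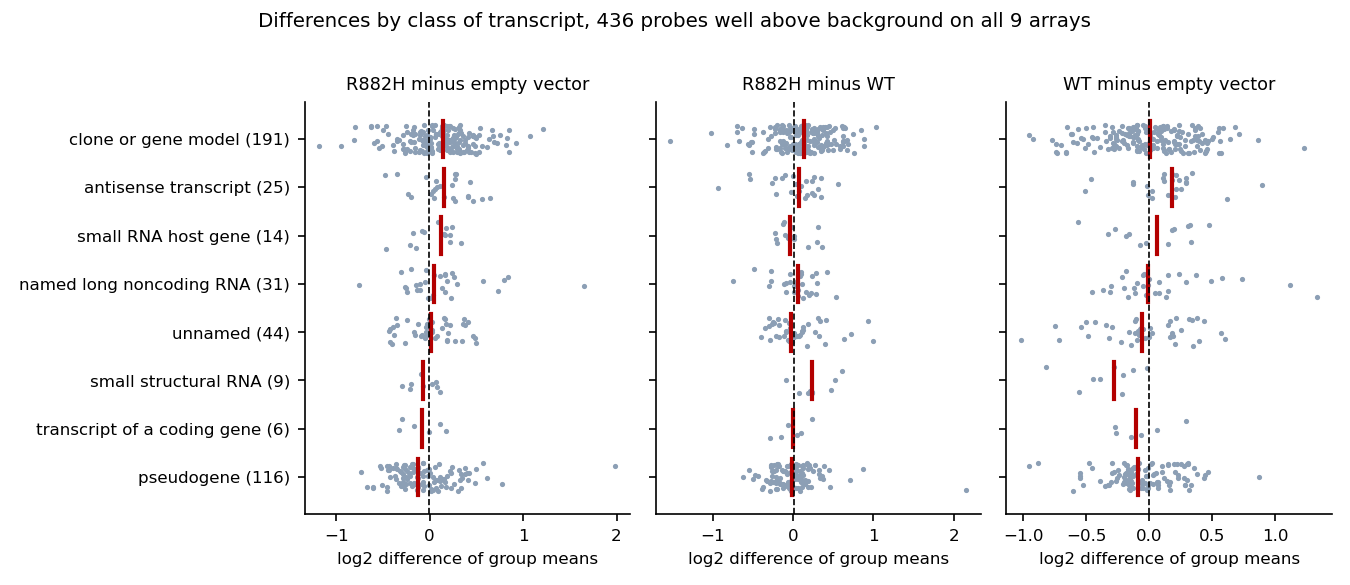
Log2 differences of group means for the 436 member probes detected on all 9 arrays, by class, with the number of probes in brackets, 1 point per probe and the class median as a red bar, for each of the 3 comparisons; the dashed line is the median of all probes detected on all 9 arrays. Between R882H and empty vector clones and antisense transcripts have medians of 0.15 and pseudogenes -0.12.

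Clones and gene models, the largest class, had a median difference of 0.15 between R882H and empty vector (126 higher and 65 lower of 191), 0.13 between R882H and wild type and 0.00 between wild type and empty vector. With array-median scaling the first was -0.01. What most of them do is unknown. 4930533B01Rik, which lies within the formin gene Fmn1, had the smallest p of all members. It read -2.34, -2.31 and -1.88 with empty vector, -1.42, -1.12 and -1.39 with wild type, and -0.91, -0.79 and -1.18 with R882H. Every array with DNMT3A lay above every empty-vector array, and R882H overlapped wild type. The difference from empty vector was 1.22 ± 0.19 for R882H (adjusted p = 0.276, limma) and 0.86 ± 0.19 for wild type (adjusted p = 0.534, limma). The R882H value was 0.90 under the value table's labels, 1.34 with the 5 arrays and 1.16 with the slide as a block. Its smallest adjusted p under any setting was 0.0833.

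9230112J17Rik was above background on 0, 2 and 3 arrays of empty vector, wild type and R882H. It read -5.73, -4.71 and -4.42, then -2.68, -3.12 and -4.22, then -2.92, -2.65 and -2.77, so R882H was at least 1.87-fold above empty vector. 2010016I18Rik, within Dennd2d, was above background on 1, 3 and 3 arrays and differed by 1.57 ± 0.45 for R882H and 1.53 ± 0.45 for wild type. The empty-vector arrays and wild type 3 of the first clone have no measured order, and the second was measured on 1 empty-vector array only.

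4930509E16Rik showed the opposite, with R882H apart from both other groups. It read -0.91, -0.28 and -0.87 with empty vector, -0.16, -0.68 and -0.17 with wild type, and -1.64, -2.05 and -1.91 with R882H. All R882H arrays lay below all others. R882H minus wild type was -1.53 ± 0.24 (adjusted p = 0.365, limma), and -1.42 within slide 2. Against empty vector it was -1.18 ± 0.24 (adjusted p = 0.347, limma). Under the value table's labels the values were -0.31 and -0.93. Its neighbours Tex9 and Rfx7 differed by 0.12 and 0.39 between R882H and empty vector.

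2310065F04Rik was lower in both DNMT3A groups. It read -0.32, -0.97 and -0.57 with empty vector, -1.55, -1.68 and -1.39 with wild type, and -1.14, -1.30 and -1.31 with R882H. The groups did not overlap in any comparison, and wild type was farthest from empty vector, by -0.92 ± 0.19 (adjusted p = 0.534, limma) against -0.63 ± 0.19 for R882H. Under the value table's labels these were -0.19 and -0.39. Of the others lower with R882H than with empty vector, 4930562F07Rik was not above background on any R882H array and was at least 2.12-fold lower, with a measured difference of -1.71 that was -0.37 with the slide as a block. 4931440P22Rik, within Tiparp, 4632415L05Rik and the unnamed NR_024069 differed by -0.64, -0.52 and -0.43, and by -0.47, -0.84 and -0.07 with the slide as a block. A second 4931440P22Rik probe went the other way, by 0.17.

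AI504432, beside the potassium channel gene Kcna3, and 1810014B01Rik, beside the chaperone gene Hsp90b1, were low in wild type alone. AI504432 read -0.66, -0.69 and -0.90 with empty vector, -1.31, -1.48 and -1.79 with wild type, and -1.07, -1.10 and -0.58 with R882H. 1810014B01Rik read -1.21, -0.91 and -1.06, then -1.96, -2.32 and -1.56, then -0.91, -1.53 and -1.27 in the same order. The wild-type arrays were the lowest 3 of 9 for each, by -0.78 ± 0.20 and -0.89 ± 0.24 against empty vector (adjusted p = 0.682 and 0.697, limma), which were -0.27 and -0.08 under the value table's labels. R882H exceeded wild type by 0.61 and 0.71, and these differences were -0.01 and -0.02 under the value table's labels.

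Further members led the R882H against wild-type comparison. 4932413F04Rik, Dbhos and Gm14635 had higher means with R882H by 0.88, 1.15 and 0.67 (Dbhos was above background on 1 wild-type array only), and the unnamed NR_030673 was at least 1.87-fold higher. In the other direction 6330407A03Rik, within Lyn, was at least 2.19-fold lower, and 3300005D01Rik, 1110020A21Rik, A430088P11Rik and the bright pseudogene Gm9079 differed by -1.03, -0.68, -0.67 and -0.34. Under the value table's labels the first 3 were 0.21, -0.12 and -0.07, and the last 4 were -0.44, 0.13, -0.38 and -0.17. Of the 16 differences named by the rule in this comparison, all kept their sign with the 5 arrays and 10 under the value table's labels.

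Between wild type and empty vector, G630055G22Rik, 2900052N01Rik, D930007P13Rik, a clone between Hoxc4 and Smug1, and 5730522E02Rik, between Bcl11a and Fancl, had higher means with wild type by 0.68, 1.19, 0.64 and 0.55. D330041H03Rik, within Abca3, Gm5129, within Dnajb6, and the unnamed NR_027360 differed by -0.61, -0.66 and -0.43. Under the value table's labels the first 4 were 0.05, 1.21, 0.23 and 0.27 and the last 3 were 0.15, -0.28 and -0.08. The Gm5129 values are those of 1 probe, and its second probe went the other way, by 0.84. None passed the adjusted threshold.

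CpG in the promoters can be described for some of the members. A window was found for 253 of 433 member genes (58.4%), so no statement is made about the whole set; nearly all pseudogenes have none. In these 253 the median was 11 CpG in 300 bases, beside 7 for all 27025 genes, 13 for coding genes and 4 for long noncoding RNA genes. Of 13 small RNA host genes with a window, 92.3% were above the median of 7. The letters of a terminal oligopyrimidine start, C and then 4 bases that are each C or T on the transcribed strand at the annotated start, were found in 11 members (4.35%, beside 2.49% of all genes).

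Members with few CpG had larger R882H minus empty-vector differences than members with many. Over 197 members detected on all 9 arrays, Spearman's rho between CpG count and difference was -0.303 and Pearson's r -0.26. These are correlations across genes that share the same 9 arrays and differ in base composition and brightness, given without a test. The 72 members with 7 CpG or fewer had a median difference of 0.235 and the other 125 of 0.085. Of the printed windows, Mirt1, 4930533B01Rik and Platr5 were CpG-poor with higher means and 4930509E16Rik CpG-rich with a lower mean, while Foxl2os (28 CpG, 0.64) and 2310065F04Rik (3 CpG, -0.63) went the other way. Coding genes went the same way less steeply, with a rho of -0.142 over 9198 genes. For the members rho was -0.28 under the value table's labels, -0.274 with cyclic loess and -0.0913 with the slide as a block. The trend was not particular to R882H. Between wild type and empty vector the members' rho was -0.17, and -0.235 under the value table's labels. Between R882H and wild type it was -0.128, and -0.0505 under those labels. CpG count also went with signal (rho 0.143).

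**Figure D5:**
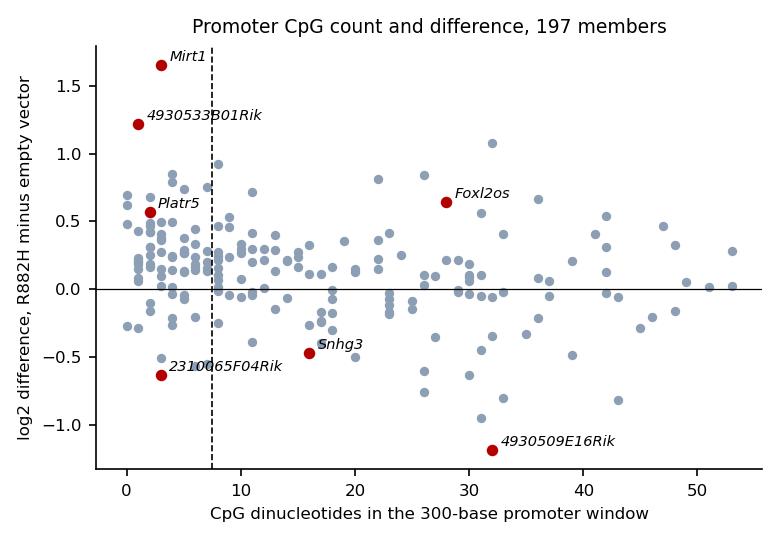
Log2 difference between R882H and empty vector against the number of CpG dinucleotides in the 300-base promoter window, 1 point per member gene (197 members detected on all 9 arrays with a RefSeq window). The dashed line separates 72 members with 7 CpG or fewer (median difference 0.235) from 125 with more (median 0.085).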

How the data were processed

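The authors deposited scanner output per array as 1-colour intensity (processed signal), made with Agilent Feature Extraction 10.10.1.1 on design 028005, annotated on mm9, per the file headers. They also deposited a value table in log2, used as an alternative, and annotation and flag columns of other kinds. Here log2 of the processed signal minus the 75th percentile of each array was computed, control and outlier spots were left out and spots of a probe averaged. limma 3.58.1 (R 4.3.3) was fitted with lmFit and eBayes to 31253 probes and 9 arrays (6 residual and 2.707 prior degrees of freedom), with Benjamini-Hochberg adjustment over all of them and a threshold of 0.05. The fit was tested on 31243 simulated probes with the means and spread of these data, 200 of them changed. It recovered 25% of changes of 1 and 88% of changes of 3 on the log2 scale, with 7 false calls. A member that did not pass may therefore still differ. The normexp alternative used median signals with an offset of 50. Array median, cyclic loess, quantile, array weights, slide and replicate blocks and left-out arrays were further alternatives. Every member and list was chosen with earlier results of these data known. Named members are, per comparison and direction, the 8 with the smallest p among those without overlap, plus the listed RNAs, the 6 brightest and the 4 leading pseudogenes. Symbols and neighbours came from a RefSeq table (GRCm38.p6), by accession. Deviations from group means of same-numbered arrays correlated at 0.102, 0.185 and 0.239 between wild type and empty vector. For number 1 the correlation was 0.0792 between R882H and empty vector and 0.0839 between R882H and wild type. Both lay under the limit of 0.1 set for pairing, while numbers 2 and 3 gave 0.122 to 0.207 there. The main fit held the groups only, without pairs. Pairing by number entered through the replicate block alone. That pairing rests on the data and not on the labels.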

Additional observations from a re-analysis of the deposited data

How the results depend on the processing

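No member passed an adjusted p of 0.05 in any comparison under any alternative run. Members at an unadjusted p under 0.05 between R882H and empty vector numbered 46, but 83 with array weights and 26 under the value table's labels. Between R882H and wild type 33 became 20 under those labels, and between wild type and empty vector 38 became 59 with the 5 arrays of 1 group in both sources, an alternative chosen after seeing the data. With 1 array left out the R882H against empty-vector count ran from 32 to 58. The replicate number as a block gave 66, 38 and 47 members in the 3 comparisons and changed no call. The median R882H minus empty-vector difference of members on all 9 arrays, 0.04, was -0.115 with the array median, 0.0138 with cyclic loess, 0.0159 after normexp and 0.00195 with the slide block, and ran from 0.0135 to 0.0647 with 1 array left out. The array median also gave -0.0330 between R882H and wild type and -0.0902 between wild type and empty vector, and moved the median level of the members from -1.08 to 1.64 by its construction.

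Single differences that turned sign between R882H and empty vector were those of Xist (-0.114 and -0.0148 at its probes) and Mir17hg (-0.0262) under the value table's labels, of 1 Xist probe without replicate 3 of any group (-0.0825), and of Norad (0.0270), Mirg (-0.171) and Hoxa11os (-0.128) with the slide block. Under the value table's labels R882H minus wild type turned to -0.00642 for AI504432, -0.0224 for 1810014B01Rik, -0.116 for Dbhos, -0.0738 for Gm14635, 0.0490 for Pvt1 and 0.127 for 1110020A21Rik, and wild type minus empty vector to -0.0476 for Mirt1 and 0.151 for D330041H03Rik. The causes were not tested, except that those labels place other arrays in the groups. The number of arrays, 3 a group, limits the precision; the median standard error of a member's difference was 0.251.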

Other observations

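Where a gene had several member probes, they often disagreed. Of 49 names with more than 1 probe, all probes had the same sign for 32 between R882H and empty vector, 31 between R882H and wild type and 32 between wild type and empty vector. Pvt1 and Tug1 are examples. Noncoding variants of coding genes, with 6 probes on all 9 arrays, had a median R882H minus empty-vector difference of -0.09.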
